A study of Mus musculus with 6 samples.

Results

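A CpG reads the same on both strands of DNA, with a C on the + strand and a C on the − strand at the next base, so each CpG holds 2 cytosines that can be methylated apart from each other. The subject here is the set of autosomal CpGs at which both cytosines had at least 3 calls in each of Tex15KO 16, Tex15HT 7, Tex15HT 18, Tex15WT 8 and Tex15WT 9. The choice used depth only and not the methylation level. It gave 8370 CpGs of the 1409942 autosomal CpGs with both strands in the table (0.594%).

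Methylation of a CpG is normally symmetric. After replication the new strand is bare, and UHRF1 and DNMT1 copy the mark from the parental strand, so a CpG methylated on 1 strand alone is a passing state unless that copying fails. Male germ cells lose most methylation before birth and regain it de novo, through DNMT3A, DNMT3C and DNMT3L, in prospermatogonia that have stopped dividing. TEX15, a protein of germ cells, takes part in the silencing of retrotransposons together with PIWI proteins and their small RNAs.

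Whole-genome bisulfite sequencing, which reads unmethylated cytosines as T and leaves methylated cytosines as C, was done on Oct4-GFP positive male germ cells sorted from single mouse pups at postnatal day 2.5. The pups were Tex15KO (both copies disrupted, pups 3 and 16), Tex15HT (1 disrupted copy, pups 7 and 18) and Tex15WT (no disrupted copy, pups 8 and 9). All were of mixed strain background, came from matings of heterozygous parents and carried the fluorescent reporter by which their cells were sorted. Each pup is a separate sample, n = 2 per genotype, and the choice of CpGs left out Tex15KO 3. A CpG table names no RNA or protein, so the labelled cell type could not be checked against marker genes.

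Most of these CpGs lie in sequence read far more deeply than the rest of the genome. Promoter sequences of RefSeq (GRCm38.p6) were placed in the table by the spacing of their CpGs, and 28 genes had a match at 1 place. The promoters below, of those matched with 5 or more of these CpGs, are shown because their levels differ most, a choice made after the values were seen: that of Pou5f1, which followed the Tex15 genotype, that of Hjurp, which was unmethylated in all samples, and that of Tmem267, which was methylated in Tex15KO 16 and all controls. Each line gives the 250 bases before the gene's start, 5′ to 3′ on the gene's strand, with the CpGs of the set in capitals. The mm9 position is chr17:35642727-35642976 (+ strand) for Pou5f1, chr1:90174155-90174404 (− strand) for Hjurp and chr13:120277030-120277279 (+ strand) for Tmem267.
Pou5f1: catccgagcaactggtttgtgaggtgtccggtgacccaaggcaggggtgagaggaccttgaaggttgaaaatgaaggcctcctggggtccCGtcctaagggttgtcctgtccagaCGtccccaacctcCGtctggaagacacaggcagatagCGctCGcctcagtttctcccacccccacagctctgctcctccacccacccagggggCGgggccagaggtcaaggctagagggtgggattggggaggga
Hjurp: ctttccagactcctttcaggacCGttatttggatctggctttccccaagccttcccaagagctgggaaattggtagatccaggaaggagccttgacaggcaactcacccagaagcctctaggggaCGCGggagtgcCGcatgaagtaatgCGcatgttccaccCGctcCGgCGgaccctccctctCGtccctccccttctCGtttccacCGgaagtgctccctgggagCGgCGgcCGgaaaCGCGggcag
Tmem267: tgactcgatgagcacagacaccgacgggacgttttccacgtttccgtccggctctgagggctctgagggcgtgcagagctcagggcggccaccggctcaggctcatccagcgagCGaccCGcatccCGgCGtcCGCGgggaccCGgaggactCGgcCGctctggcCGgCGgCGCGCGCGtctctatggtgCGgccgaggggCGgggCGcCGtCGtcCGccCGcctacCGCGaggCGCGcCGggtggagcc

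The set was clustered. Its CpGs fell in 2675 windows of 1 kb, of which 1510 held a single one and 182 held 10 or more, 3383 in all. Joined over gaps of up to 2 kb they formed 1561 stretches, and 54 stretches of 20 or more CpGs held 4917 of the 8370. Chromosome 17 contributed the most, with 1337 CpGs or 2.25% of its both-strand CpGs. The 5 windows with most CpGs (124, 122, 92, 87 and 84) all lay in 1 stretch, chr17:39979946-39985768. CpGs of 1 stretch share reads and copies of a sequence and are not independent of each other.

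Median calls per CpG, strands summed, were 16 in Tex15KO 3 and 31 in Tex15KO 16, 20 and 27 in Tex15HT 7 and 18, and 20 in each of Tex15WT 8 and 9. The set held 19.4 to 29.3% of all calls of a sample. Of its CpGs, 5612 held a cytosine in the top 0.1% of coverage in at least 1 of the 5 chosen samples. That coverage began above 17 calls per cytosine in Tex15KO 16, 12 and 14 in Tex15HT 7 and 18, and 12 in each of Tex15WT 8 and 9. Its mean level lay between 52.0 and 54.5% in the 5 samples, against 71.1 to 74.8% for other both-strand CpGs with 6 or more calls. Tex15KO 3 stood apart: 4001 of the 8370 had a strand with 0 calls there, and where a strand had 6 to 10 calls, 83.3% of strands had calls all alike, against 31.6 to 40.1% in the other samples. Values with Tex15KO 3 are therefore given apart, on the 3812 CpGs with 3 or more calls on each of its strands.

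The strands of a CpG had similar levels in the 5 samples. With a level of 75% or more called high and 25% or less called low, both strands were high at 32.1% of the CpGs in Tex15KO 16, at 31.8% and 31.7% in Tex15HT 7 and 18, and at 32.3% and 27.1% in Tex15WT 8 and 9. Both were low at 28.6% in Tex15KO 16, at 26.9% and 26.0% in Tex15HT 7 and 18, and at 25.8% and 25% in Tex15WT 8 and 9. Opposite states, 1 strand high and the other low, were found at 54 CpGs (0.645%) in Tex15KO 16, 93 (1.11%) and 62 (0.741%) in Tex15HT 7 and 18, and 111 (1.33%) and 122 (1.46%) in Tex15WT 8 and 9. The samples with fewer calls had more such CpGs, and the Tex15KO pup, the deepest, had fewest.

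**Figure D1:**
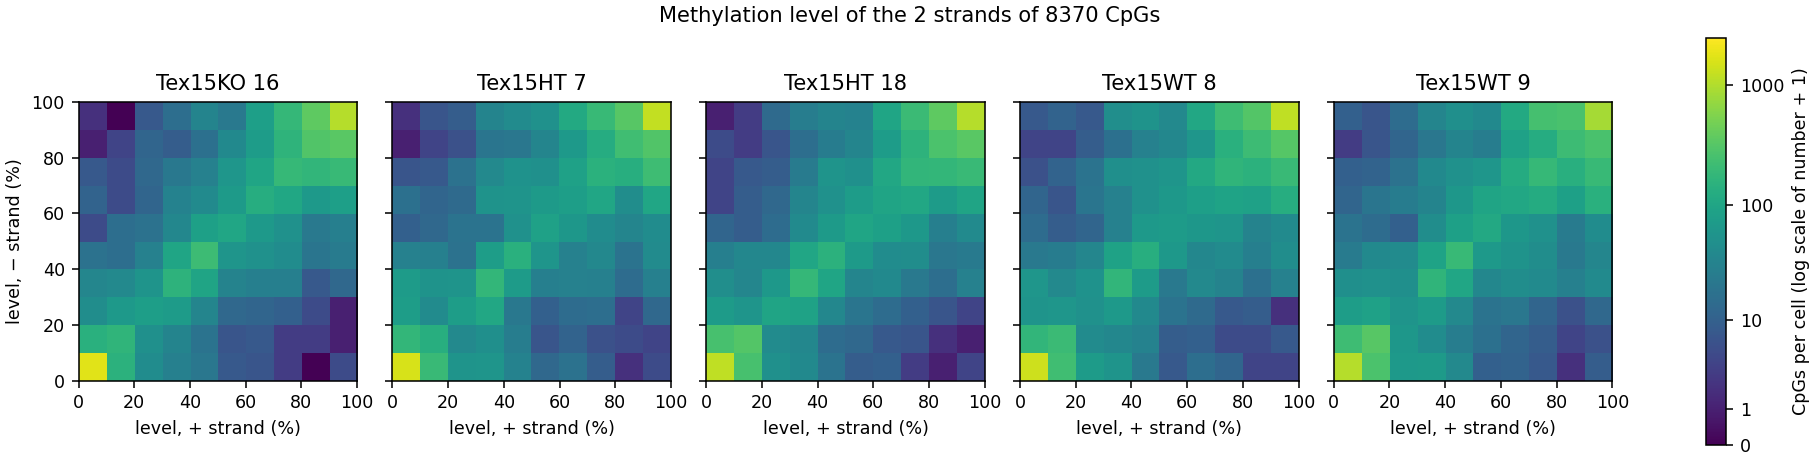
Methylation level of the + strand (horizontal) against that of the − strand (vertical) of 8370 CpGs, 1 panel per sample, in cells of 10 by 10 percentage points coloured by the number of CpGs on a log scale. Most CpGs lie at the 2 ends of the diagonal or along it, and the corners of opposite states hold 0.645% of CpGs in Tex15KO 16 and up to 1.46% in Tex15WT 9.

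The share of CpGs in opposite states averaged 1.06% ± 0.355 over the 5 samples (SD, n = 5). Tex15KO 16 minus the mean of the 4 controls was −0.514 points, which an exact two-sided permutation test over 1 against 4 samples puts at p = 0.2, the smallest such a design allows. Depth moved with the share. Among CpGs whose shallowest strand had 3 or 4 calls it lay between 1.06 and 2.70%. Among the 882 CpGs with 100 or more calls on every strand it was 0 in all 5 samples. That would allow up to 0.340% in each if these CpGs were independent of each other, which they are not. The 2 depth classes also differ in level: the mean of a strand was 60.1 to 62.4% in the first and 19.2 to 22.9% in the second. Where each strand had 10 or more calls, Tex15KO 16 had 7 such CpGs of 2691, Tex15HT 7 and 18 had 5 and 7, and Tex15WT 8 and 9 had 4 and 5.

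Across CpGs of 1 sample, the correlation of the 2 strands (Pearson's r, n = 8370) was 0.896 in Tex15KO 16, 0.856 and 0.867 in Tex15HT 7 and 18, and 0.842 and 0.811 in Tex15WT 8 and 9. The points share a library, and neighbours share reads, so r is a description. At 100 or more calls, where the mean level was lower, it lay between 0.977 and 0.991.

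Removing the binomial counting error gives the root mean square (RMS) difference between strands. It was 8.66 points in Tex15KO 16, 11.7 and 10.0 in Tex15HT 7 and 18, and 11.8 and 12.3 in Tex15WT 8 and 9. For comparison, the same strand of the same CpG differed between the 2 pups of a genotype by 9.62 points on + and 9.95 on − in Tex15HT, and by 10.5 on + and 11.8 on − in Tex15WT. The 2 strands of a CpG in 1 pup thus differed about as much as 1 strand differed between 2 pups. The next CpG of the set on the same strand differed by 12.1 to 13.8 points at 1 to 20 bp, a range that overlaps that between strands, with Tex15WT 9 lower here than between its strands. It differed by 21.7 to 23.2 points at 21 to 100 bp and 25.9 to 27.6 at 101 to 500 bp, more than the strands did in any of the 5 samples. The RMS difference between strands was 9.57 to 15.2 points at 3 or 4 calls and 2.12 to 2.64 points at 100 or more calls. The deepest CpGs also had the lower mean level, and the fall was not steady in every sample. In Tex15KO 16 it was 9.44 points at 5 to 9 calls and 9.85 at 10 to 29. Tex15KO 16 minus the controls' mean was −2.81 points (exact two-sided permutation test, p = 0.2, the smallest possible).

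**Figure D2:**
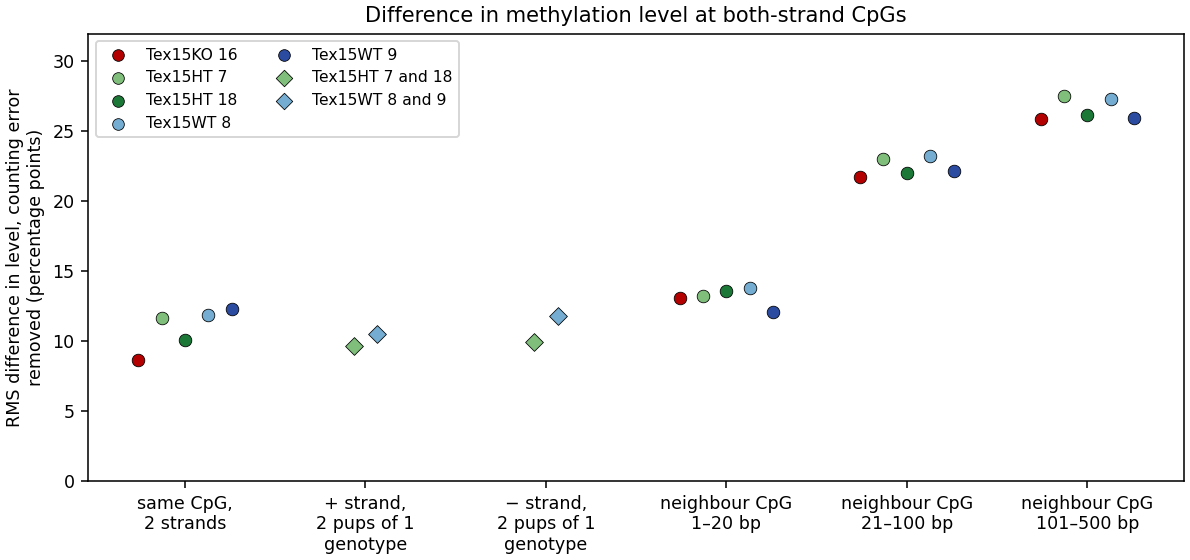
RMS difference in level, with counting error removed, in percentage points: between the strands of 1 CpG, between 2 pups of 1 genotype on 1 strand, and between neighbouring CpGs on 1 strand at 3 ranges of distance. Circles are samples and diamonds pairs of pups; differences between strands (8.66 to 12.3) overlap those between pups (9.62 to 11.8) and lie below those of neighbours over 20 bp away.

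A CpG near 50% could be methylated on both strands in part of the cells or copies, or on the same 1 strand in all of them. Among CpGs with 10 or more calls per strand and a level of 40 to 60%, both strands lay between 25 and 75% at 416 of 429 (97.0%) in Tex15KO 16, 331 of 348 (95.1%) and 369 of 384 (96.1%) in Tex15HT 7 and 18, and 349 of 366 (95.4%) and 464 of 480 (96.7%) in Tex15WT 8 and 9. Opposite states made up 1.63% of them in Tex15KO 16, 1.44% and 1.82% in Tex15HT 7 and 18, and 1.09% and 1.04% in Tex15WT 8 and 9. Intermediate levels were therefore read on both strands in all 5 samples. The counts do not join the 2 strands of 1 molecule. They cannot tell methylation of both strands in part of the molecules from methylation of 1 strand or the other in each.

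On the 3812 CpGs also read in Tex15KO 3, opposite states were found at 6.87% in Tex15KO 3 and 0.420% in Tex15KO 16, against 0.341% in each of Tex15HT 7 and 18 and 0.446% and 0.525% in Tex15WT 8 and 9. The RMS difference between strands was 30.3 points in Tex15KO 3 and 7.69 in Tex15KO 16, 9.17 and 7.66 in Tex15HT 7 and 18, and 9.56 and 8.72 in Tex15WT 8 and 9. Tex15KO 3 lay above all other samples in both measures, while Tex15KO 16 lay among the controls. Over the 6 samples, Tex15KO exceeded the controls by 3.23 points in opposite states (exact two-sided permutation test, p = 0.2) and by 10.2 points in RMS difference (p = 0.267 by the same exact test). The part that the alike calls of Tex15KO 3 have in this was not tested.

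Few CpGs were in opposite states in more than 1 sample: 342 were so in 1, 25 in 2, 8 in 3, 4 in 4 and 2 in all 5. The 2 found in all 5, chr10:7232041-7232042 and chr10:7232818-7232819, lie in 1 stretch and were high on the − strand. The second is named here for this count and lies outside the rule for named CpGs. Its + strand was at 6.90% in Tex15KO 3 and 20.6% in Tex15KO 16, 24.2% and 10.6% in Tex15HT 7 and 18, and 13.3% and 6.45% in Tex15WT 8 and 9. Its − strand was at 75.0% in Tex15KO 3 and 90.0% in Tex15KO 16, 93.2% and 90.5% in Tex15HT 7 and 18, and 80.4% and 91.7% in Tex15WT 8 and 9. The 2 strands did not overlap in any pair of samples.

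A lasting difference between strands was sought with edgeR's quasi-likelihood test, with each pup its own pair and Benjamini-Hochberg adjustment over the 8370 CpGs. It called 302 CpGs at an adjusted p under 0.05, with the + strand higher at 138 (1.65% of those tested) and the − strand higher at 164 (1.96%). At an unadjusted p under 0.05 the counts were 395 and 422. The spread that the fit shared over all CpGs (edgeR's dispersion) was very small, 0.000139. Its p values therefore rest largely on numbers of calls, also at CpGs with few calls. Of the 302, 267 had the same sign in all 5 samples. In Tex15KO 3, which the test did not use, 191 of the 249 with calls on both strands had the same sign, as did 55 of 57 with a mean difference of 25 points or more. limma called 23 and 60, and 69 of its calls were among the 302.

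Within 1 library, Fisher's exact test called 96 CpGs in Tex15KO 16 (1.15%), 87 and 105 in Tex15HT 7 and 18 (1.04% and 1.25%), and 83 and 75 in Tex15WT 8 and 9 (0.992% and 0.896%), with Benjamini-Hochberg adjustment in each library. It compares the calls of 1 library, not pups. The same 47 CpGs were called in all 5 samples, and 88 in 1 sample alone.

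The called differences ranged widely in size. At 105 CpGs the mean difference was under 5 points, at 101 it was 25 points or more, with 74 of the 101 higher on the − strand, and at the rest it lay between. Of the 105 smallest, 57 and 35 lay in 2 very deep stretches. In chr9:3000031-3038257, 95 of 570 CpGs were called with a median size of 4.09 points from a median of 1935 calls per strand and sample. In chr2:98502421-98507483, 43 of 67 were called with a median size of 2.32 points and 25016 calls. Both directions occurred in each, 55 + higher and 40 − higher on chromosome 9, and 22 and 21 on chromosome 2. Of the 302 calls, 185 lay in these 2 stretches and in that of chromosome 10 described next. A further stretch, chr4:118219684-118221336, had 10 of 54 called, all higher on the + strand, with a median size of 11.2 points. Without CpGs in the top 0.1% of coverage 1 call was left, of 2758 CpGs tested. Those 2758 were the less deeply read, and the dispersion of that fit was 0.121 in place of 0.000139.

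The large differences gathered in chr10:7229407-7237066, which held 36 of the 101. Of its 79 CpGs, 47 were called, all higher on the − strand, with a median size of 34.4 points, and 78 of the 79 had a lower mean on the + strand. The + strand averaged 38.7% in Tex15KO 3 and 43.2% in Tex15KO 16, 42.2% and 40.8% in Tex15HT 7 and 18, and 42.3% and 42.7% in Tex15WT 8 and 9. The − strand averaged 74.5% in Tex15KO 3 and 71.3% in Tex15KO 16, 69.9% and 70.8% in Tex15HT 7 and 18, and 70.7% and 71.5% in Tex15WT 8 and 9. The difference was present in all 3 genotypes. It was widest in Tex15KO 3, which had the lowest + mean and the highest − mean of the 6 samples. The other 5 samples lay between 40.8 and 43.2% on + and between 69.9 and 71.5% on −.

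Its CpGs were spaced in a repeated order: 14 pairs lay 74 bp apart and 11 pairs 167 bp apart. The less methylated + strand was also the deeper. Its CpGs had a median of 41 calls against 18 on the − strand in Tex15KO 3, and 58 against 25 in Tex15KO 16. The medians were 44 against 27 and 48 against 27 in Tex15HT 7 and 18, and 41 against 22 and 37 against 21 in Tex15WT 8 and 9. Over the 101 large differences, 36 of them in this stretch, the less methylated strand was the deeper at 73. The 73 were not divided between this stretch and the rest, so they do not show such a link elsewhere. The part of unequal read numbers in the difference was not tested.

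**Figure D3:**
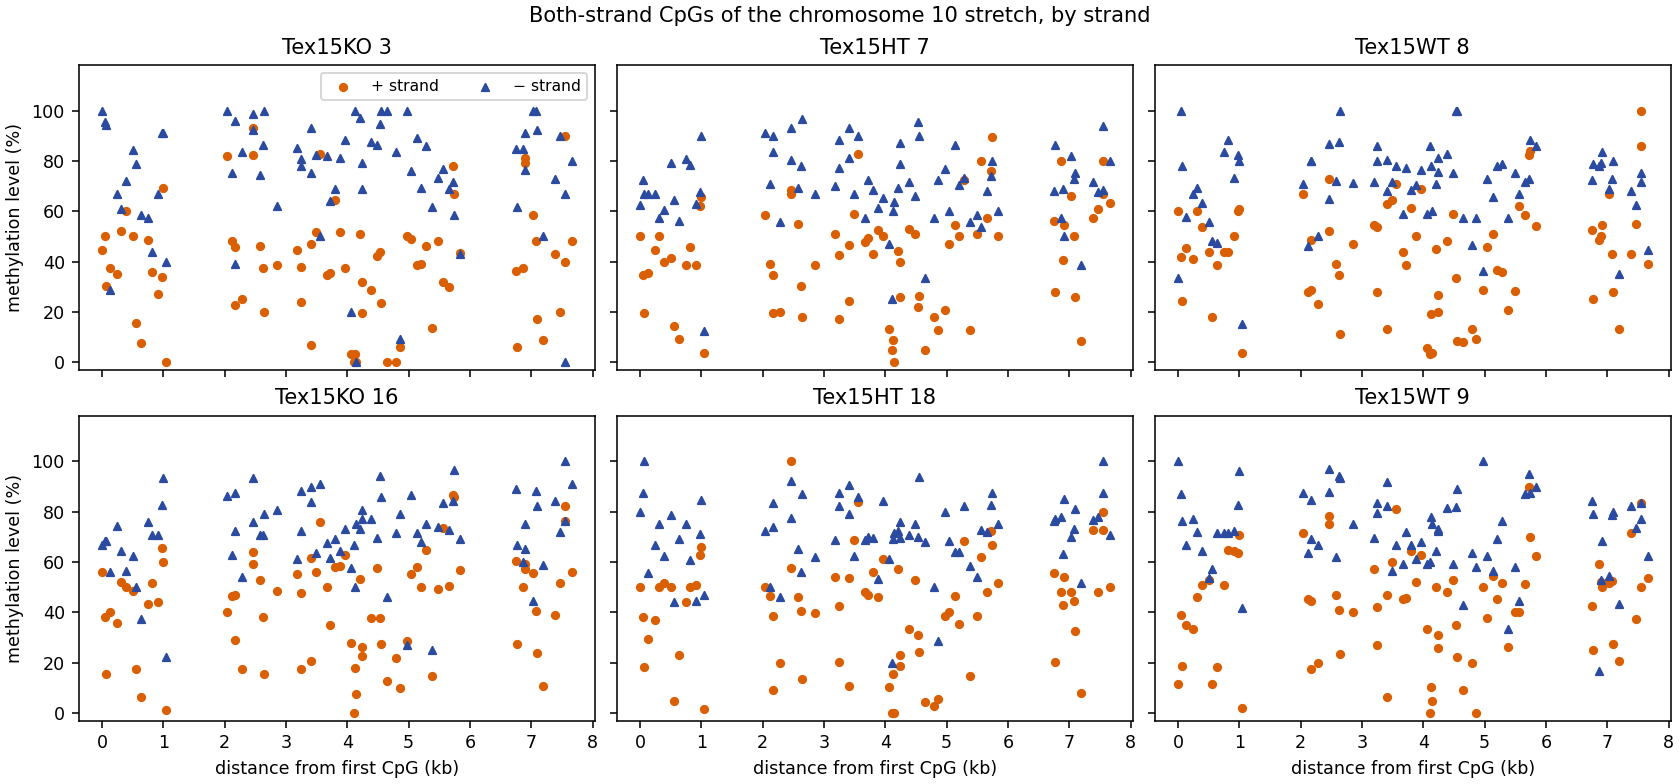
Methylation level of each strand of the 79 CpGs of chr10:7229407-7237066 in the 6 samples, against distance in kb from the first CpG. Circles are the + strand and triangles the − strand; triangles lie above circles at 69 of 78 CpGs in Tex15KO 3 and at 74 to 76 of 79 in the other samples.

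The largest differences with the − strand higher, at most 1 per fixed 1 kb window, were at chr10:7232041-7232042, chr4:3013496-3013497, chr10:7233949-7233950, chr16:3116247-3116248, chr1:90201989-90201990 and chr10:7231579-7231580. At chr10:7232041-7232042 the + strand was at 15.5% in Tex15KO 16, 18.2% and 13.6% in Tex15HT 7 and 18, and 11.1% and 23.5% in Tex15WT 8 and 9. The − strand was at 79.2% in Tex15KO 16, 96.4% and 87.0% in Tex15HT 7 and 18, and 100% and 93.3% in Tex15WT 8 and 9. The mean difference was −74.8 points ± 9.51 (SD, n = 5, edgeR adjusted p = 1.17e-26, limma 0.00911), from 13 or more calls on every strand. The same sign in all 5 samples was a condition of the choice.

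Outside that stretch, chr16:3116247-3116248 was the best read. Its + strand was at 20.7% in Tex15KO 16, 5% and 23.8% in Tex15HT 7 and 18, and 0% and 12.5% in Tex15WT 8 and 9, and its − strand at 82.1% in Tex15KO 16, 88.5% and 85.7% in Tex15HT 7 and 18, and 64.7% and 82.4% in Tex15WT 8 and 9. The mean difference was −68.3 points ± 9.12 (SD, n = 5, edgeR adjusted p = 4.92e-17), from at least 16 calls a strand. The other 4 had mean differences of −64.3 to −70.5 points, 2 of them with as few as 3 calls on a strand. The call at chr1:90201989-90201990 was lost without Tex15HT 18 (edgeR adjusted p = 0.111).

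With the + strand higher, the largest were at chr4:145279380-145279381, chr11:107816070-107816071, chr7:39189665-39189666, chr17:32862716-32862717, chr4:146797053-146797054 and chr16:3252269-3252270. All 6 had a strand with 3 or 4 calls in some sample. At chr4:145279380-145279381 the + strand was at 71.4% in Tex15KO 16, 100% in both Tex15HT pups, and 94.4% and 100% in Tex15WT 8 and 9. The − strand was at 0% in Tex15KO 16, in both Tex15HT pups and in Tex15WT 8, and at 25% in Tex15WT 9. The mean difference was +88.2 points ± 13.9 (SD, n = 5, edgeR adjusted p = 6.92e-08). Tex15KO 3, not part of the test, read the reverse there, with 0 of 2 calls methylated on + and 6 of 6 on −. The other 5 lay between +51.7 and +77.2 points. The last 3 of the 6 lost their calls when single pups were left out. At chr17:32862716-32862717 the edgeR adjusted p was 0.0874 and 0.138 without Tex15HT 7 or 18, and 0.117 and 0.0917 without Tex15WT 8 or 9. At chr16:3252269-3252270 it was 0.0794 and 0.222 without Tex15HT 7 or 18, and 0.0782 and 0.0869 without Tex15WT 8 or 9. At chr4:146797053-146797054 it was 0.0547 without Tex15KO 16, and 0.0807 and 0.0672 without Tex15WT 8 or 9. Without CpGs in the top 0.1% of coverage none of these 3 was called (edgeR adjusted p 0.230 to 0.470).

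Over all CpGs of the set the mean of the + strand minus that of the − strand was −0.268 points in Tex15KO 16, −0.361 and −0.374 in Tex15HT 7 and 18, and −0.327 and −0.371 in Tex15WT 8 and 9. The mean of the 5 was −0.340 ± 0.0444 (SD, n = 5). The sign was the same in all 5. An exact sign-flip permutation test over 5 samples then gives its smallest possible p, which is above 0.05. Without CpGs in the top 0.1% of coverage the mean was +0.000279 points.

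The study's own comparison was made on the strands summed. Of 12311 autosomal both-strand CpGs that had at least 6 calls in every sample, edgeR's quasi-likelihood test called 398 lower in Tex15KO than in Tex15WT (3.23%) and 6 higher (0.0487%). The set contributed 5872 of those tested, of which 375 were lower (6.39%) and 6 higher, while 23 of the 6439 others were lower (0.357%). The set holds the deeper CpGs, and without CpGs in the top 0.1% of coverage 0 of 6616 were called by edgeR. limma called 0, while its unadjusted p was under 0.05 at 620 of the set with lower and 172 with higher levels, against 811 and 105 in edgeR. Without Tex15WT 9 edgeR called 91 of the set, without Tex15WT 8 147, and without Tex15KO 16 1071. Tex15HT against Tex15WT gave 26 lower (0.211% of those tested) and 0 higher by edgeR, all 26 in the set. Tex15KO against Tex15HT gave 286 lower and 29 higher of the 12311 by edgeR, with 271 and 29 of these among the 5872 of the set.

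Over the 375 the mean level was lower in both Tex15KO pups than in every control on each strand. The mean level on + and − was 7.39 and 5.68% in Tex15KO 3 and 7.31 and 8.08% in Tex15KO 16, against 24.7 and 24.6% in Tex15HT 7, 28.4 and 27.2% in Tex15HT 18, 31.1 and 31.6% in Tex15WT 8, and 28.6 and 30.3% in Tex15WT 9. Both strands of Tex15KO 16 lay below the mean of the 4 controls at 366 of the 375. These strand values come from the calls that chose the CpGs and are a description. In 232 of the 375 the level in Tex15WT was already under 20%, and 130 differed by 25 points or more.

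They lay in 23 stretches. The stretch chr17:39979946-39985768 held 190, with a mean level of 2.18% ± 1.10 in Tex15KO, 8.61% ± 2.10 in Tex15HT and 9.68% ± 1.57 in Tex15WT (SD, n = 2 each). In chr11:3026970-3099990 the 66 called lower lay at 24.5% ± 2.41 in Tex15KO, 74.1% ± 1.53 in Tex15HT and 75.3% ± 1.13 in Tex15WT (SD, n = 2 each), and both Tex15KO pups lay below all 4 controls. In chr8:19781920-19785158 the 24 lay at 1.40% ± 0.932 in Tex15KO, 32% ± 11 in Tex15HT and 49.1% ± 21.6 in Tex15WT, and in chr8:20019807-20023099 the 15 lay at 1.01% ± 0.950 in Tex15KO, 36.3% ± 15.7 in Tex15HT and 49.3% ± 21 in Tex15WT. The 2 stretches of chromosome 8 varied widely among controls, and the one of chromosome 11 did not. The values in this paragraph also come from the calls that chose the CpGs.

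The largest decreases, at most 1 per fixed 1 kb window, were at chr3:44369105-44369106, chr17:35642883-35642884, chr11:3092283-3092284, chr17:35641648-35641649 and chr8:19893283-19893284. At chr11:3092283-3092284 the level was 0% and 8.24% in Tex15KO 3 and 16, 78.1% and 79.8% in Tex15HT 7 and 18, and 79.0% and 80.2% in Tex15WT 8 and 9, from 88 to 182 calls (edgeR adjusted p = 2.83e-10, limma 0.149). Its strands agreed: Tex15KO 16 had 8.33% on + and 8.18% on −. At chr3:44369105-44369106 it was 0% and 3.03% in Tex15KO 3 and 16, 88.5% and 79.4% in Tex15HT 7 and 18, and 88.5% and 73.9% in Tex15WT 8 and 9, from 8 to 34 calls (edgeR adjusted p = 0.00335, limma 0.138). The 8 calls of Tex15KO 3 there were all on the − strand, and its + strand had 0.

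The differences of the other 3 were −68.3 to −75.9 points. At all 5 both Tex15KO pups lay below all 4 controls. These CpGs were chosen for their decrease in the same calls, so this is a description. Without Tex15WT 8 or 9 the edgeR adjusted p was 0.266 and 0.130 at chr3:44369105-44369106, and 0.137 and 0.133 at chr8:19893283-19893284, while the other 3 calls held. The call at chr8:19893283-19893284 was also lost with 10 or more calls (edgeR adjusted p = 0.0672). The 3 largest increases were smaller, 25.1, 15 and 10.2 points at chr11:3037079-3037080, chr11:3061104-3061105 and chr17:35645577-35645578 (edgeR adjusted p 0.0309, 0.0373 and 0.0222). The first was at 100% and 81.3% in Tex15KO 3 and 16, 65.5% and 74.3% in Tex15HT 7 and 18, and 67.4% and 63.6% in Tex15WT 8 and 9. At the second of them 1 of the 2 Tex15KO pups lay within the controls. All 3 calls were lost with 10 or more calls, in limma and without any 1 of the 4 controls or Tex15KO 3, and the third also without Tex15KO 16. Without Tex15KO 3 the first was 15.8 points (edgeR adjusted p = 0.422) and the second 9.86 points (edgeR adjusted p = 0.526).

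Whether loss was read on both strands was measured without reading the calls that chose the CpGs. CpGs were chosen on the + strand, where Tex15KO 16 lay 50 points or more below the mean of the 4 controls, and were then read on the − strand. The choice gave 126 CpGs in 58 windows of 1 kb, at 17.3% on + in Tex15KO 16 against 76.4% in the controls. Their − strand was at 34.8% in Tex15KO 16, 70.1% and 70.8% in Tex15HT 7 and 18, and 75.2% and 72.0% in Tex15WT 8 and 9. Tex15KO 3, on neither side of the choice, was at 21.8% over the 94 CpGs read there. The − strand was lower than the controls' mean at 103 of 126, and by 30 points or more at 87.

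Chosen on − and read on +, 123 CpGs were at 32.9% in Tex15KO 16, 66.7% and 68.8% in Tex15HT 7 and 18, and 73.5% and 69.9% in Tex15WT 8 and 9. Tex15KO 3 was at 35.7% on + over the 89 CpGs read there. Gains of 50 points or more, 29 on each strand, averaged +3.78 points when chosen on + and read on −, and +1.05 points when chosen on − and read on +. On the strand not used for the choice 15 and 16 of the 29 were higher, and 3 of 29 each time by 30 points or more. The loss is concentrated: 47 of the 126 lay in chr11:3026970-3099990, and without that stretch the difference on − was −26.0 points in place of −37.3. With 10 or more calls per strand the choice gave 56 CpGs in 7 windows, of which 56 were lower by 30 points or more on the − strand as well. Without CpGs in the top 0.1% of coverage it gave 45, of which 25 were lower on the − strand and 15 by 30 points or more, with a mean difference of −15.8 points.

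**Figure D4:**
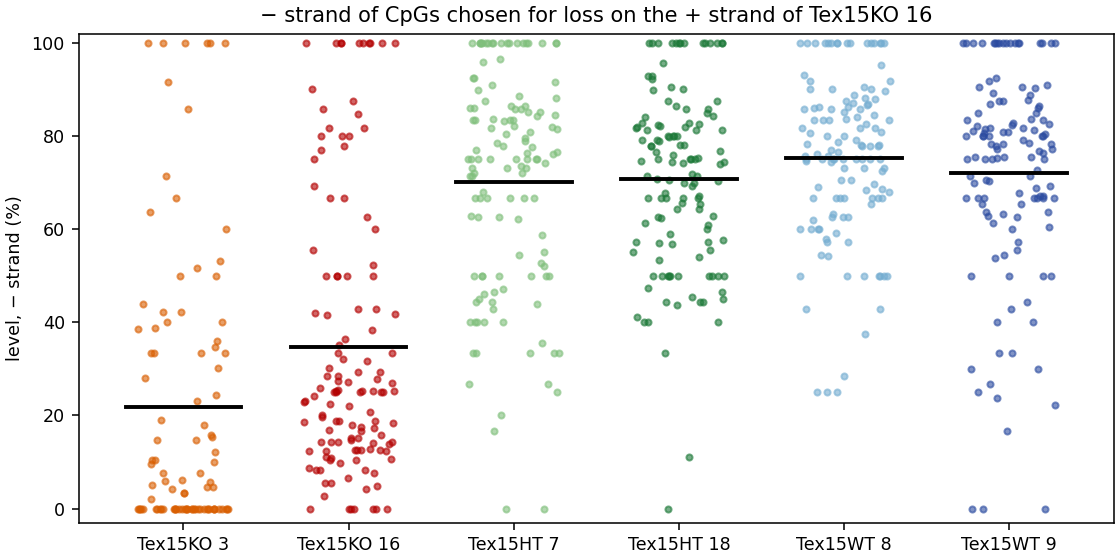
Level on the − strand of the CpGs whose + strand lay 50 points or more below the controls' mean in Tex15KO 16, 1 point per CpG (126, and 94 in Tex15KO 3) with the mean as a bar. The means are 21.8% and 34.8% in Tex15KO 3 and 16, and 70.1 to 75.2% in the 4 controls, whose + strand entered the choice but whose − strand did not.

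The 9 CpGs of the set in the matched Pou5f1 window, chr17:35642727-35643026, had levels that followed the genotype on both strands. That window runs past the start, and the sequence above shows 6 of the 9. Pou5f1 encodes the transcription factor OCT4 of pluripotent and germ cells, and the sorted cells carry an Oct4-GFP reporter. The region was singled out after its values were seen, so the group values are a description. Over the 6 CpGs within 500 bp before the start, the + strand was at 3.60% in Tex15KO 3 and 8.91% in Tex15KO 16, 59.5% and 49.2% in Tex15HT 7 and 18, and 82.6% and 76.5% in Tex15WT 8 and 9. The − strand was at 3.82% in Tex15KO 3 and 14.4% in Tex15KO 16, 48.4% and 51.8% in Tex15HT 7 and 18, and 80.4% and 76.6% in Tex15WT 8 and 9. The genotypes did not overlap on either strand, with Tex15HT between the others.

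The 18 CpGs in the 500 bp after the start had the same order, at 43.2% ± 9.28 in Tex15KO, 62.1% ± 1.86 in Tex15HT and 76.9% ± 4.06 in Tex15WT (SD, n = 2 each, strands summed). So did the 10 CpGs 1 to 2 kb before it, at 55.4% ± 0.327 in Tex15KO, 76.1% ± 2.00 in Tex15HT and 82.4% ± 2.05 in Tex15WT. In the next 500 bp, beyond 2 kb before the start, 3 CpGs had both Tex15KO pups below all controls on each strand. Their + strand was at 73.4% and 85.1% in Tex15KO 3 and 16, 89.8% and 90.8% in Tex15HT 7 and 18, and 94.2% and 92.1% in Tex15WT 8 and 9, and their − strand at 72.1% and 78.5% in Tex15KO 3 and 16, 88.1% and 86.7% in Tex15HT 7 and 18, and 92.1% and 95.4% in Tex15WT 8 and 9. With those 3 included, the mean level was 90.7% ± 0.434 in Tex15KO, 91.6% ± 1.37 in Tex15HT and 90.7% ± 1.52 in Tex15WT over the 61 CpGs more than 2 kb before the start. A dip 3 to 5 kb after the start was present in all 6 samples, at 73.4% ± 5.38 in Tex15KO, 73.6% ± 0.788 in Tex15HT and 75.5% ± 1.94 in Tex15WT over 36 CpGs. The Tex15KO pups lay on opposite sides of the controls there, at 77.2% in Tex15KO 3 and 69.6% in Tex15KO 16, against 73.1 to 76.9%. In Tex15KO 3 the dip was at 71.8% on + and 84.2% on −.

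edgeR called 12 of the 220 CpGs of the stretch in Tex15KO against Tex15WT, 11 lower near the start and 1 higher. The largest decrease among the 9 CpGs of the matched Pou5f1 window was at chr17:35642883-35642884, 94 bp before the start. It was methylated at 2.86% and 8.92% in Tex15KO 3 and 16, 55.7% and 52.5% in Tex15HT 7 and 18, and 84.3% and 79.2% in Tex15WT 8 and 9, from 70 to 157 calls (edgeR adjusted p = 2.57e-08, limma 0.138). The same CpG had an edgeR adjusted p of 0.000282 in Tex15KO against Tex15HT and of 1 in Tex15HT against Tex15WT, although the levels of those genotypes did not overlap. The strand test called 1 CpG of the 220.

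The 220 CpGs lie in chr17:35634667-35652000, which was read 13.3 and 18.5 times as deeply as the 20 kb on each side in Tex15KO 3 and 16, 21.6 and 22.8 times in Tex15HT 7 and 18, and 20.3 and 18.4 times in Tex15WT 8 and 9. Reads of the gene and of any reporter copies made with its sequence cannot be told apart in the table. The excess depth was lowest in Tex15KO 3, while Tex15KO 16 and Tex15WT 9 were alike in it. The part of copy number in these levels was not tested.

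**Figure D5:**
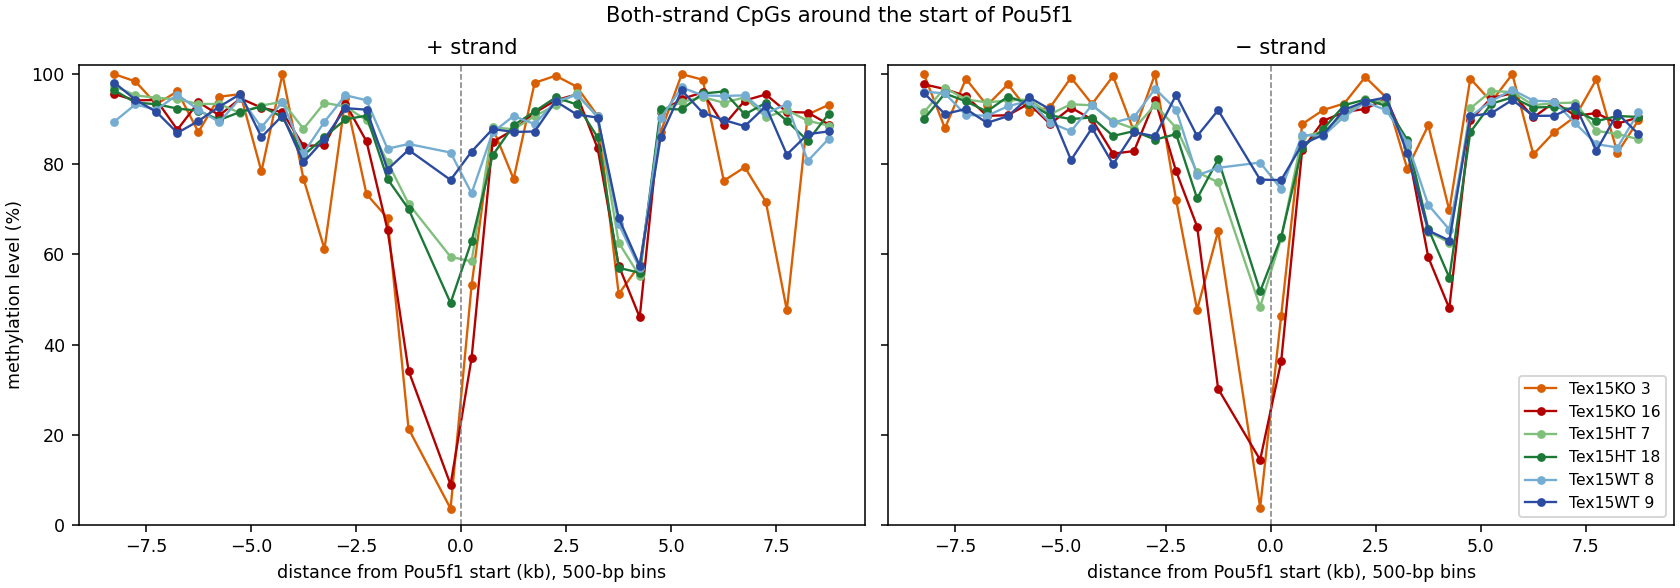
Methylation level of both-strand CpGs on the + strand (left) and the − strand (right) in bins of 500 bp, against distance in kb from the start of Pou5f1 (dashed line), with 1 line per sample. Just before the start both Tex15KO samples are under 15% on each strand, the Tex15HT samples between 48.4 and 59.5% and the Tex15WT samples between 76.5 and 82.6%. A dip 3 to 5 kb after it occurs in all 6 samples, with Tex15KO 16 lowest and Tex15KO 3 highest over its CpGs with strands summed.

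The other promoters shown did not follow the genotype. Hjurp encodes the chaperone that brings the histone variant CENP-A to centromeres. The 21 CpGs of the set in its matched window, chr1:90174105-90174404, were at 0 to 3.20% on every strand of the 6 samples, from 23 to 377 calls. That window runs past the start, and the sequence above shows 16 of the 21. The stretch of 699 CpGs around Hjurp, chr1:90108150-90189103, lay between 61.7 and 72.6%. The 27 CpGs at Tmem267, a window shared with the promoter of 3110070M22Rik, were at 73.6% on + and 71.2% on − in Tex15KO 16, 54.4 and 83.5% in Tex15HT 7, 75.7 and 83.3% in Tex15HT 18, 74.6 and 72.1% in Tex15WT 8, and 61.8 and 60.6% in Tex15WT 9. Tex15KO 3 read 2.78% on + and 73.7% on − there, from 36 and 209 calls. This was a pair of opposite strands in the sample whose calls were most often all alike.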

How the data were processed

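The authors deposited 1 table of counts (coverage, C calls and T calls) per CpG cytosine and sample, per the file headers, with strands on separate lines. BSMAP, Bismark and methylKit on mm9 are named in the submitters' processing notes, without roles. Removal of PCR copies is not given in the sources used here, so intervals and limits cover counting error only. They also take CpGs as independent of each other. A T in a pup's own genome is read as an unmethylated C.

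The CpGs and tests were chosen with earlier results of these data known. Levels are C over all calls. The strand test fitted C and T counts per strand with edgeR 4.0.16 in R 4.3.3, with pup as pair, and limma 3.58.1 used log2((C + 1)/(T + 1)). The genotype test fitted all 6 samples on strand sums and adjusted over all 12311 CpGs. In both edgeR fits the prior degrees of freedom came out infinite, so the spread was shared over CpGs. An adjusted p therefore does not measure how far pups differed at 1 CpG. The shared dispersion was 0.000139 in the strand fit and 0.171 in the genotype fit. Both fits were tested on simulated data. Permutation tests ran in Python 3.11.15 by full enumeration. Named CpGs were the 6 largest mean strand differences in each direction with the same sign in 5 samples, and the 5 largest decreases and 3 largest increases of Tex15KO, at most 1 per fixed 1 kb window and none on chromosome 18.

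No mm9 genome was used. RefSeq promoters of 8 or more CpGs (15382 searched) were placed where all table CpGs of a window, at least 8 and at least 60% of the promoter's, matched in spacing at 1 place. This is a match of spacing, not of sequence. Alternatives were other minimum calls, exclusion of very deep cytosines, each sample left out, limma and other thresholds.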

Additional observations from a re-analysis of the deposited data

How the results depend on the processing

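The share of CpGs in opposite states (1.06%) was 0.383% with 5 or more calls per strand, 0.208% with 10 or more, 2.01% without the top 0.1% of coverage, 1.49% with Tex15KO 3, 1.82% with 1 CpG per 1 kb window, 0.108% for exactly 100% and 0%, and 3.44% for 67 and 33%. The RMS strand difference (10.9 points) was 8.89 with 5 calls, 6.95 with 10, 12.9 without the top 0.1% and 13 with 1 CpG per kb. The mean strand difference (−0.340 points) was −0.613 and −0.791 with 5 and 10 calls, −0.553 with Tex15KO 3, −0.291 with 1 per kb, and +0.000279 without the top 0.1%, where its sign turned. Fisher's test called 3.88% in place of 1.07% with 10 calls. The 302 strand calls became 34 with 1 CpG per kb, 83 in limma, 1 without the top 0.1% and 101 at 25 points or more, and lay between 238 and 260 with a sample left out. The 381 CpGs of the set called in Tex15KO against Tex15WT became 66 with 10 calls, 0 in limma and 0 without the top 0.1%, and lay between 91 and 1071 with a sample left out. The other-strand loss (−37.3 points) was −24.7 for 30 points, −52.6 and −55.7 with 5 and 10 calls, and −15.8 without the top 0.1%, and, chosen after seeing the data, −26.0 without the fullest stretch and −21.1 without the 3 fullest. Causes were not tested. No named CpG changed sign in an alternative that could test it, but calls were lost: of 12 strand calls limma kept 11 and a pup left out kept 9 to 11, 1 of 4 was kept without the top 0.1%, and 6 of 7 with 1 per kb. Of 8 genotype calls limma kept 0, 10 calls kept 3 of 7, and a pup left out kept 3 to 7. No paired analysis was possible because the genotypes share no pup numbers, apart from the pairing of strands within a pup. Depth limits the values, since 2691 of 8370 CpGs had 10 or more calls on every strand. The setting without the top 0.1% keeps only the less deeply read CpGs, and both edgeR fits had a larger dispersion there.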
